A study of Caenorhabditis elegans with 12 samples.

Results

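Trehalose, glycerol and the glyoxylate shunt join sugar storage, osmotic protection and the conversion of fat to sugar in Caenorhabditis elegans. The genes described here were picked by name as the enzymes at these branch points: icl-1, tps-1, tps-2, gob-1, tre-1, tre-2, tre-3, tre-5, gpdh-1 and gpdh-2. They were picked with earlier results of these data known, so counts and medians over them are descriptive. The array held 26 probes for these 10 genes, 23 of those probes passed the filter on dim signal, and all 10 genes were among the 13486 genes measured. The trehalase tre-4, which is not one of the 10, is given for comparison.

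Total RNA of whole adult worms was measured on 12 single-colour arrays in 4 groups of 3. One group was the mutant daf-2(e1370), grown at 15 °C and held at 25 °C for the last 12 h. The others were wild-type N2 Bristol worms kept at 15 °C, worms moved to 25 °C for 3 h, and worms moved to 25 °C for 12 h. daf-2 encodes the insulin/IGF-1 receptor, and e1370 is a temperature-sensitive allele, carried in all cells, that lowers its activity. The labels call the worms adults and give no age in days. daf-2 worms at 15 °C or after 3 h were not analysed here, so the mutant was compared with N2 at 12 h only. The arrays came in sets A, B and 1, each set being 1 slide with 1 array of every group in the same slide position, so slide position and group cannot be told apart. The source names call sets A and 1 both replicate 1, and no label says that the arrays of a group came from separate cultures, so the p-values measure only the spread between these arrays. Because the RNA came from whole worms, fewer cells of a type and less RNA per cell cannot be told apart.

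In the trehalose pathway, trehalose-6-phosphate synthase joins UDP-glucose and glucose-6-phosphate, a phosphatase releases the free sugar, and trehalases split it back to glucose. Worms hold trehalose as a reserve and as a protectant against heat, drying and high salt. Glycerol is made from the glycolytic intermediate dihydroxyacetone phosphate by glycerol-3-phosphate dehydrogenase and a phosphatase, and is the main solute that worms gather under hyperosmotic stress. The glyoxylate shunt bypasses the decarboxylating steps of the tricarboxylic acid cycle, so that carbon from fatty acids can be turned into sugar; in nematodes 1 bifunctional protein, ICL-1, carries both isocitrate lyase and malate synthase. Reduced insulin signalling is known for fat and glycogen storage, for trehalose accumulation and for a shift towards the shunt.

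Levels are given as log2 signal relative to the 75th percentile of each array, so that 0 is the level of the 75th percentile spot. Differences are on the same log2 scale with the standard error of the limma fit, and a gene was called changed where its adjusted p over all 13486 genes was under 0.05. In daf-2 worms at 12 h, 3 of the 10 genes were higher than in N2 worms at 12 h and none was lower: icl-1, tps-1 and tps-2. Over all genes, 14.4% were called higher and 7.59% lower in that comparison. The median difference of the 10 genes was 0.38, against -0.14 over all genes. In N2 worms, tps-1 rose after 3 h at 25 °C relative to 15 °C. tre-5 was called lower after 12 h than at 15 °C, but it was well above background on all 3 arrays only at 15 °C, so it was measured only through the group where it was high.

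**Figure D1:**
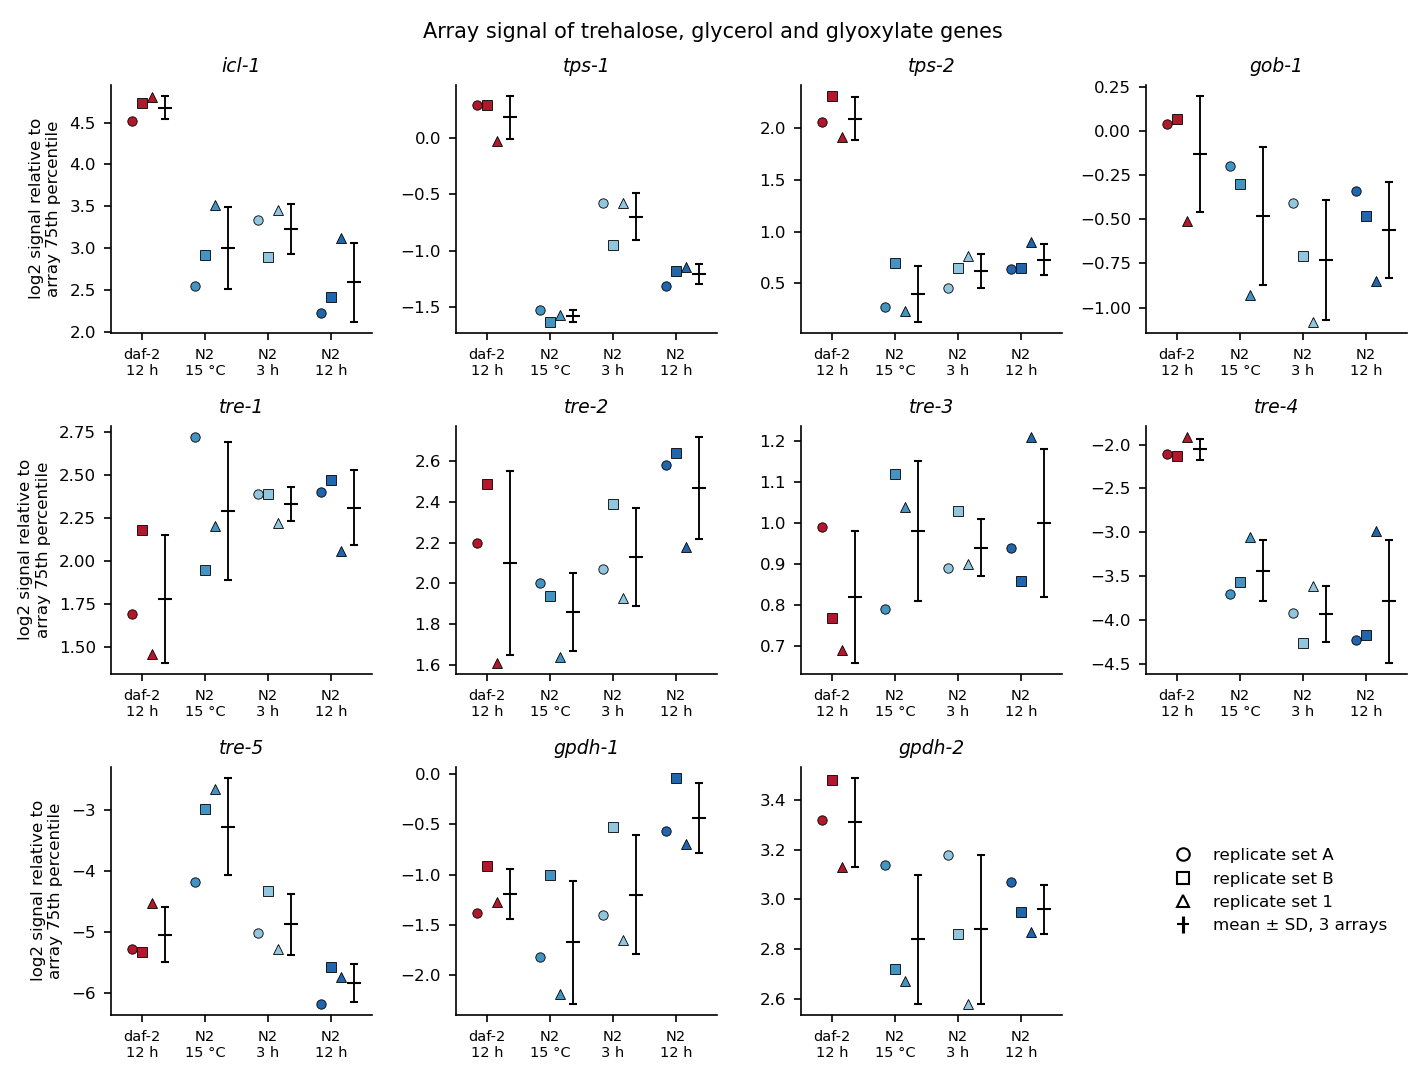
Log2 signal relative to the array's 75th percentile (vertical axes, each with its own range) for the 10 genes and tre-4, by group (horizontal axes). Symbols are single arrays of sets A, B and 1 and bars are the mean ± SD of 3 arrays. The 3 daf-2 arrays lie above all N2 arrays for icl-1, tps-1, tps-2 and tre-4, and several tre-5 signals below -5 were not well above background. The share of all genes with such a separation was not counted.

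Trehalose synthesis starts at trehalose-6-phosphate synthase, which tps-1 and tps-2 encode. The log2 level of tps-1 was 0.29, 0.29 and -0.03 in daf-2 worms in sets A, B and 1. In N2 worms it was -1.53, -1.63 and -1.57 at 15 °C, -0.58, -0.95 and -0.58 after 3 h, and -1.31, -1.18 and -1.15 after 12 h. On this probe, the brightest for tps-1, no group overlapped another. N2 at 15 °C was lowest, N2 at 12 h next, N2 at 3 h above that and daf-2 highest. A second probe kept that order without overlap. On the third, daf-2 was -1.51, -2.49 and -1.04 and overlapped N2 at 3 h and at 12 h. tps-1 was higher in daf-2 worms at 12 h than in N2 worms at 12 h by 1.39 ± 0.15 (2.62-fold, limma adjusted p = 0.000256). Of its 3 probes, 2 were called higher and the differences ran between 0.82 and 1.39.

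After 3 h at 25 °C, tps-1 in N2 worms was higher than at 15 °C by 0.88 ± 0.15 (1.83-fold, limma adjusted p = 0.0311). It was the 1 gene of the 10 called in that comparison, where 0.719% of all genes were called higher and 0.304% lower. The difference was 0.95, 0.69 and 0.99 within sets A, B and 1, and 2 of the 3 probes were called, with differences between 0.83 and 1.0. The call held in 10 of 27 alternative analyses. It was lost with median scaling (adjusted p = 0.64), and when the N2 15 °C array of set A (0.105), B (0.0993) or 1 (0.105) or the N2 3 h array of set A (0.133) or 1 (0.0994) was left out. It was also lost without the N2 12 h array of set A (0.0587) or B (0.0659) or the daf-2 array of set A (0.0506) or B (0.0582), which enter the estimate of the spread. Over all 27 the tps-1 difference stayed between 0.75 and 1.0. After 12 h, tps-1 in N2 differed from 15 °C by 0.37 (95% confidence interval 0.03 to 0.71, adjusted p = 0.274) and from 3 h by -0.51 (-0.85 to -0.17, adjusted p = 0.146), and neither passed the test.

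tps-2, the second synthase gene, was higher in daf-2 worms but showed no called difference among N2 groups. Its log2 level was 2.06, 2.31 and 1.91 in daf-2 worms, and in N2 worms it was 0.27, 0.70 and 0.23 at 15 °C, 0.46, 0.65 and 0.76 after 3 h, and 0.64, 0.65 and 0.90 after 12 h. The daf-2 arrays stood apart from all N2 arrays, whereas N2 averaged 0.40 at 15 °C, then 0.62 at 3 h and 0.73 at 12 h, and each of these groups overlapped the next. The difference of daf-2 from N2 at 12 h was 1.36 ± 0.18 (2.57-fold, limma adjusted p = 0.000652), and it was 1.42, 1.66 and 1.01 within sets A, B and 1. It rests on 1 of the 4 tps-2 probes, since the other 3 were not well above background on any array. In N2 worms, tps-2 differed by 0.22 at 3 h and 0.33 at 12 h relative to 15 °C (95% confidence intervals -0.18 to 0.62 and -0.07 to 0.73).

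gob-1 encodes the trehalose-6-phosphate phosphatase, the last enzyme of synthesis, whose loss blocks the gut of young larvae. Its log2 level was 0.04, 0.07 and -0.51 in daf-2 worms, against -0.34, -0.48 and -0.85 in N2 worms at 12 h. Set 1 was the lowest in both groups, and the groups overlapped. The difference was 0.42 (95% confidence interval -0.17 to 1.01) and did not pass the test (limma adjusted p = 0.267). With the replicate set as a block it did (adjusted p = 0.0184), the differences within sets A, B and 1 being 0.37, 0.55 and 0.34. In N2 worms gob-1 was -0.20, -0.30 and -0.93 at 15 °C and -0.41, -0.71 and -1.08 after 3 h, and no N2 comparison passed the test with or without the block.

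**Figure D2:**
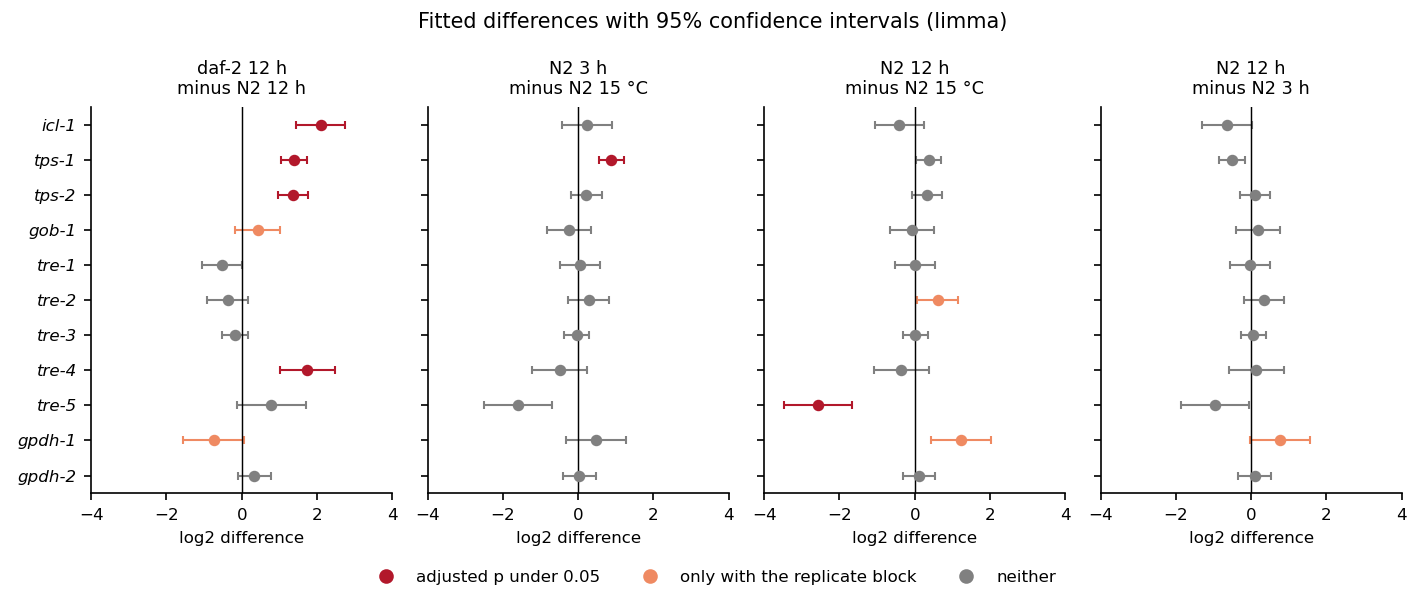
Log2 differences with 95% confidence intervals (limma, horizontal axes) of the 10 genes and tre-4 in the 4 comparisons, one panel each. Red marks adjusted p under 0.05 and orange an adjusted p under 0.05 only with the replicate set as a block; icl-1, tps-1, tps-2 and tre-4 are red in the first panel, tps-1 in the second, tre-5 in the third and none in the fourth.

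Among the trehalases, which break trehalose down, tre-5 was called lower in N2 worms after 12 h and tre-4 higher in daf-2 worms. tre-5 had the largest difference of the 10 genes in N2 worms, on a dim signal. Its log2 level in N2 worms was -4.18, -2.99 and -2.66 at 15 °C, -5.02, -4.33 and -5.29 after 3 h, and -6.18, -5.58 and -5.75 after 12 h. All 3 arrays at 15 °C were well above background, against 2 of 3 after 3 h and 1 of 3 after 12 h. The 3 groups did not overlap, with 15 °C highest and 12 h lowest.

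The fitted tre-5 difference of N2 worms after 12 h from 15 °C was -2.56 ± 0.41 (limma adjusted p = 0.0108), and -2.0, -2.59 and -3.09 within sets A, B and 1. Since the gene passed the filter on dim signal only through the 15 °C group, its size is set by signals near background. It was the 1 called gene of the 10 in this comparison, where 1.85% of all genes were called higher and 0.786% lower. With signals not well above background raised to the lowest signal that was, the difference was -2.06 (4.18-fold). That is no bound on the size, since the lowest signal was taken over all probes of an array. With normexp background correction and quantile normalization the tre-5 difference was -1.3. Where probes had to be above background on all arrays tre-5 was not measured. The call was lost without the N2 12 h array of set A (adjusted p = 0.0525) and without set A (0.199), set B (0.155) or set 1 (0.0772). After 3 h the tre-5 difference from 15 °C was -1.60 (95% confidence interval -2.51 to -0.69) with an adjusted p of 0.128. In daf-2 worms tre-5 was -5.28, -5.34 and -4.53, with 1 of 3 arrays well above background, and the difference from N2 at 12 h was 0.79 (-0.12 to 1.70, adjusted p = 0.188).

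tre-4, the trehalase outside the 10 genes, was higher in daf-2 worms. Its log2 level was -2.11, -2.13 and -1.91 in daf-2 worms, and in N2 worms it was -3.70, -3.57 and -3.05 at 15 °C, -3.92, -4.26 and -3.61 after 3 h, and -4.23, -4.17 and -2.99 after 12 h. The daf-2 arrays lay above all N2 arrays, and the N2 groups overlapped. The difference of daf-2 from N2 at 12 h was 1.74 ± 0.33 (3.35-fold, limma adjusted p = 0.00422), and it was 2.12, 2.04 and 1.07 within sets A, B and 1. Over the alternatives it ran between 0.93 with normexp and quantile normalization and 2.15 without the N2 12 h array of set 1. The call was lost without set A (adjusted p = 0.111) or set B (0.0898). No N2 comparison of tre-4 passed the test.

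tre-1, tre-2 and tre-3 passed no test in the fit of group means. tre-1 was 1.69, 2.18 and 1.46 in daf-2 worms, against 2.40, 2.47 and 2.06 in N2 worms at 12 h, a difference of -0.53 (95% confidence interval -1.06 to 0.00, limma adjusted p = 0.138). Among N2 groups the tre-1 means lay between 2.29 and 2.33. The N2 groups of tre-1 overlapped, and the array of set A at 15 °C, at 2.72, was the highest of all 12.

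tre-2 in N2 worms was 2.00, 1.94 and 1.64 at 15 °C, 2.07, 2.39 and 1.93 after 3 h, and 2.58, 2.64 and 2.18 after 12 h. The 12 h arrays lay above the 15 °C arrays. The difference of 0.61 ± 0.24 between 12 h and 15 °C did not pass the test (limma adjusted p = 0.244) but did with the replicate block (adjusted p = 0.0347), and its 3 probes gave 0.61 to 0.71. The daf-2 arrays, at 2.20, 2.49 and 1.61, overlapped N2 at 12 h, with a difference of -0.37 (95% confidence interval -0.91 to 0.17, adjusted p = 0.288). tre-3 stayed between 0.69 and 1.21 on all 12 arrays, and its differences in the 4 comparisons ran between -0.18 and 0.06 with 95% confidence intervals inside -0.53 to 0.40.

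gpdh-1 and gpdh-2 encode glycerol-3-phosphate dehydrogenases of the cytosol; gpdh-1 is the gene most used as a reporter of hyperosmotic stress in worms, and gpdh-2 is the more steadily expressed one. gpdh-1 was -1.38, -0.91 and -1.27 in daf-2 worms, and in N2 worms it was -1.82, -1.0 and -2.18 at 15 °C, -1.40, -0.53 and -1.65 after 3 h, and -0.57, -0.04 and -0.70 after 12 h. Set B was the highest array in each group, and within each set N2 went up in the order 15 °C, 3 h, 12 h. All N2 arrays at 12 h lay above the daf-2 arrays and above N2 at 15 °C.

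Whether gpdh-1 passed the test turned on the replicate block. The difference of 12 h from 15 °C in N2 was 1.23 ± 0.36 (2.35-fold, limma adjusted p = 0.112), and with the block the adjusted p was 0.00637. Within sets A, B and 1 it was 1.25, 0.96 and 1.49. Between 12 h and 3 h it was 0.76 (adjusted p = 0.449, with the block 0.0384). In daf-2 worms at 12 h gpdh-1 differed from N2 at 12 h by -0.75 (95% confidence interval -1.55 to 0.05, adjusted p = 0.158, with the block 0.010), and by -0.81, -0.87 and -0.57 within sets A, B and 1. The direction was negative in daf-2 against N2 at 12 h and positive in N2 at 12 h against 15 °C; both comparisons share the N2 12 h arrays.

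gpdh-2 was 3.32, 3.48 and 3.13 in daf-2 worms, against 3.07, 2.95 and 2.87 in N2 worms at 12 h. The daf-2 arrays lay above the N2 12 h arrays, yet the difference of 0.34 (95% confidence interval -0.09 to 0.77) did not pass the test (limma adjusted p = 0.221). A second gpdh-2 probe gave 0.56 with an adjusted p of 0.0257 over the 26582 probes fitted, and quantile normalization of the first gave 0.52 (adjusted p = 0.0333). In N2 worms the gpdh-2 means were 2.84 at 15 °C, 2.88 after 3 h and 2.96 after 12 h, and the groups overlapped.

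**Figure D3:**
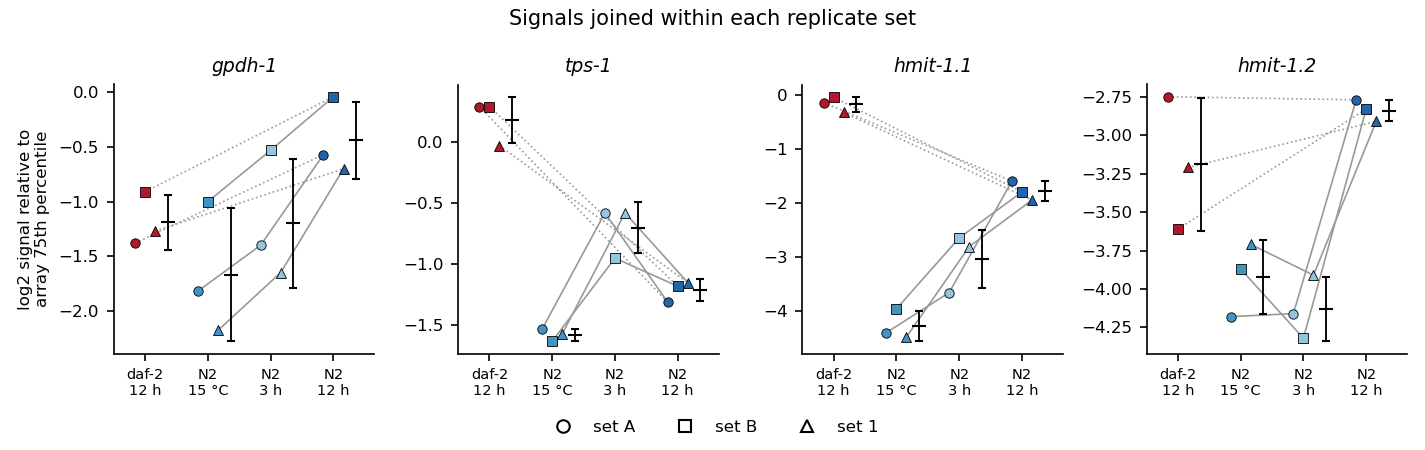
Log2 signal relative to the array's 75th percentile (vertical axes) of gpdh-1, tps-1, hmit-1.1 and hmit-1.2 by group (horizontal axes), with solid lines joining the N2 arrays of a set and dotted lines joining daf-2 and N2 at 12 h; bars are the mean ± SD of 3 arrays. gpdh-1 goes up from 15 °C to 12 h in every set at different heights, whereas tps-1 is highest after 3 h among the N2 arrays of every set.

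icl-1, the enzyme of the glyoxylate shunt, had the largest called difference of the 10 genes in daf-2 worms. Its log2 level was 4.52, 4.73 and 4.80 in daf-2 worms, and in N2 worms it was 2.55, 2.92 and 3.52 at 15 °C, 3.34, 2.89 and 3.46 after 3 h, and 2.22, 2.42 and 3.12 after 12 h. The daf-2 arrays lay above every N2 array, and the N2 groups overlapped one another. The difference of daf-2 from N2 at 12 h was 2.10 ± 0.29 (4.27-fold, limma adjusted p = 0.000917), and it was 2.30, 2.30 and 1.68 within sets A, B and 1. The 6 icl-1 probes well above background on all 12 arrays were all called, with differences between 2.09 and 2.24. A seventh probe was above background on all 3 arrays in daf-2 worms only and on 1 of 3 in each N2 group, so it adds no measured size.

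In N2 worms icl-1 passed no test. It differed by 0.23 after 3 h (95% confidence interval -0.42 to 0.89) and by -0.41 after 12 h (-1.06 to 0.24), both relative to 15 °C, and by -0.64 between 12 h and 3 h (-1.3 to 0.01). The same 6 probes gave -0.71 to -0.46 for 12 h against 3 h, none of them called.

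**Figure D4:**
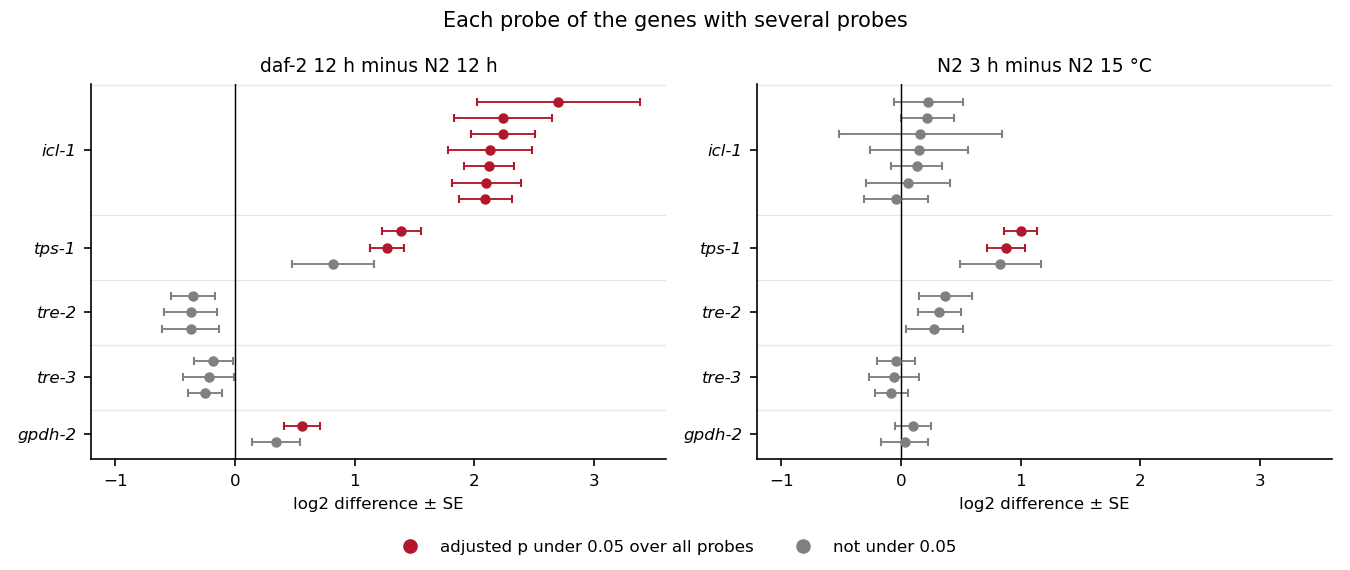
Log2 difference ± SE (horizontal axes) of each kept probe of the genes with several probes, in daf-2 against N2 at 12 h (left) and N2 at 3 h against 15 °C (right). Red points have an adjusted p under 0.05 over all 26582 probes; the icl-1 probes are red at left (the one farthest right was near background in N2 worms), and 2 of the 3 tps-1 probes are red in both panels.

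The calls of icl-1, tps-1 and tps-2 in daf-2 worms held in all 27 alternative analyses, with adjusted p up to 0.0444. With the replicate set as a block, 4 of the 10 genes were called higher and 1 lower in daf-2 worms, against 19.9% and 17.6% of all genes. Over all genes, the deviations of the daf-2 and N2 12 h arrays of a set correlated by 0.389, -0.399 and 0.129 in sets A, B and 1. Over all genes these arrays thus did not deviate together in every set, a general limit on block calls there, those of gob-1 and gpdh-1 included. The values of these genes do not themselves show it. In both groups set 1 was lowest for gob-1 and set B highest for gpdh-1. For N2 at 12 h against 15 °C the block gave 2 higher and 1 lower, against 5.09% and 2.48% of all genes. Between N2 at 12 h and N2 at 3 h, none of the 10 genes was called (1.53% of all genes higher and 0.564% lower), although 2 had an unadjusted limma p under 0.05, tps-1 and tre-5. The block called gpdh-1 there, where 3.97% of all genes were higher and 1.45% lower. Without the block, 4 of the 10 had an unadjusted limma p under 0.05 in N2 at 12 h against 15 °C. At 3 h against 15 °C 2 did. The share of all genes with such an unadjusted p was not counted. The N2 comparisons share arrays with one another and with the daf-2 comparison, so their values are not independent.

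Neighbouring carbon metabolism was read against the 14.4% of all genes called higher and 7.59% called lower in daf-2 worms. The tricarboxylic acid cycle, which the shunt leaves and rejoins, had 3 of 22 measured genes lower and none higher: suca-1, a succinyl-CoA ligase subunit (-0.75, limma adjusted p = 0.0353), cts-1, citrate synthase (-0.66, adjusted p = 0.0477), and sucg-1, another succinyl-CoA ligase subunit (-0.60, adjusted p = 0.019). The median of the list was -0.29 against -0.14 over all genes, and the share called lower was 13.6%. The block called 8 of its genes lower (36.4%, against 17.6% of all genes). In gluconeogenesis 1 of 5 genes was higher, pck-1 for phosphoenolpyruvate carboxykinase (0.82, adjusted p = 0.0281). In glycolysis 2 of 15 were higher (13.3%) and 1 lower (6.67%): pyk-2 for pyruvate kinase (0.85, adjusted p = 0.00846), gpd-3 for glyceraldehyde-3-phosphate dehydrogenase (0.52, adjusted p = 0.0406), and hxk-1 for hexokinase (-0.64, adjusted p = 0.0373). None of the 9 glycogen genes passed the limma test with or without the block, and 1 had an unadjusted p under 0.05.

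The calls of suca-1, cts-1, sucg-1, pck-1, gpd-3 and hxk-1 each ended when the N2 12 h array of set A or of set B was left out (limma adjusted p between 0.0743 and 0.16). They held in between 8 and 18 of 27 alternatives, and that of pyk-2 held in 24. In the 3 N2 comparisons limma called none of the 51 genes of these 4 lists, with 7 of 153 tests at an unadjusted p under 0.05.

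Among 16 measured genes tied to osmotic stress and glycerol synthesis, 4 were higher in daf-2 worms at 12 h than in N2 worms at 12 h, with a list median of 0.15 against -0.14 over all genes. That is 25.0% of the list, against 14.4% of all genes called higher. The 4 include dpy-7, which passed the filter on dim signal only through the daf-2 group, so it was measured only because it was high there. With the block 5 were higher and 1 lower (31.2% and 6.25%, against 19.9% and 17.6% of all genes). hmit-1.1, a proton-coupled myo-inositol transporter induced by hyperosmotic stress, was -0.15, -0.05 and -0.33 in daf-2 worms, and in N2 worms -4.40, -3.96 and -4.48 at 15 °C, -3.66, -2.65 and -2.81 after 3 h, and -1.60, -1.80 and -1.95 after 12 h. The 4 groups did not overlap, in that order from lowest in N2 at 15 °C to highest in daf-2. It was higher by 1.61 ± 0.26 in daf-2 than in N2 at 12 h (3.05-fold, limma adjusted p = 0.00189). In N2 worms it was higher after 12 h than at 15 °C by 2.49 ± 0.26 (5.62-fold, adjusted p = 0.00162), a call lost without set A (0.108) or set B (0.073), and higher after 12 h than after 3 h by 1.26 (adjusted p = 0.0411).

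Its relative hmit-1.2 was -2.77, -2.83 and -2.91 in N2 worms after 12 h, against -4.18, -3.87 and -3.71 at 15 °C and -4.16, -4.32 and -3.91 after 3 h. It was higher after 12 h by 1.08 ± 0.22 relative to 15 °C (2.12-fold, limma adjusted p = 0.0333) and by 1.3 ± 0.22 relative to 3 h (2.45-fold, adjusted p = 0.0247). In the fit of group means these transporters were the only genes of the 16 called in N2 worms. Their calls between 12 h and 3 h, and that of hmit-1.2 between 12 h and 15 °C, ended when the N2 12 h array of any 1 set was left out (adjusted p between 0.0625 and 0.144).

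The cuticle collagen genes dpy-7 and dpy-10, whose loss is known to switch on gpdh-1, were higher in daf-2 worms too. dpy-10 was 1.5, 2.33 and 3.20 in daf-2 worms, against -0.76, -1.06 and 0.12 in N2 worms at 12 h, a difference of 2.91 ± 0.42 (7.51-fold, limma adjusted p = 0.00112). dpy-7 was -0.33 and 0.81 on the 2 daf-2 arrays with an even spot, against -5.95, -5.24 and -2.69 in N2 worms, where 1 of 3 arrays was well above background. dpy-7 thus passed the filter only through the daf-2 group. The fit, which drops the third daf-2 array, gave 4.87 ± 1.05 (adjusted p = 0.011), and alternatives ran between 3.22 with normexp and quantile normalization and 5.84 without the N2 12 h array of set 1, so its size is not fixed by these arrays. That call was lost without the daf-2 array of set B (0.0739), set A (0.0851) or set B (0.189). elt-2, the intestinal GATA factor, was higher by 0.61 (adjusted p = 0.0466), a call that held in 11 of 27 alternatives and was lost without the N2 12 h array of set A (0.149), B (0.109) or 1 (0.068), among others.

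The strain label was checked on targets of insulin signalling. sod-3, a superoxide dismutase gene, was 3.78, 3.62 and 3.21 in daf-2 worms, against -0.03, 0.15 and 0.73 in N2 worms at 12 h (limma adjusted p = 3.55e-05). mtl-1, a metallothionein gene, was 5.27, 5.16 and 4.84, against -2.39, -2.54 and 0.15 (adjusted p = 0.000664). dod-3 (4.03) and akt-2 (1.3) were the others of the 10 genes of that list called higher. daf-2 mRNA differed by 0.14 (adjusted p = 0.854) and daf-16 mRNA by -0.06 (adjusted p = 0.758), and since e1370 changes the protein, the daf-2 level checks nothing about the label.

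Genes whose 12-array pattern was nearest were found by the root mean square difference after subtracting each gene's mean, among 7964 genes with a symbol. Nearest to icl-1 were lgmn-1, a legumain-like protease gene (0.25), bcmo-2, a carotenoid oxygenase gene (0.26), and tsp-6, a tetraspanin gene (0.28), against a root mean square of 0.85 for icl-1 about its own mean. Nearest to tps-1 were skr-4, a Skp1-related gene (0.21), nmad-1 (0.22) and pnk-1, a pantothenate kinase gene (0.22), against 0.67. Nearest to tps-2 were atg-2, an autophagy gene (0.12), cest-27, a carboxylesterase-like gene (0.18), and plpp-1.2, a phospholipid phosphatase gene (0.18), against 0.68. tre-5 had no gene as near: ora-1 (0.53), fip-1 (0.59) and pgp-14 (0.61) came first, against 1.03. In the daf-2 comparison atg-2 differed by 1.53, beside 1.36 for tps-2, which follows from its choice by pattern over the same arrays.

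The arrays differed in the share of spots detected and in the summed signal of cell type genes, between sets and between groups. Between 55.5% and 84.9% of spots were well above background, the arrays of set 1 having the highest shares, and no spot was saturated. Summed signal of 32 measured sperm genes (of 45 listed), in units of each array's 75th percentile, was 33.8 to 190 in daf-2 worms, against 148 to 1140 in N2 worms at 12 h; in N2 worms it was 82.6 to 1690 at 15 °C and 264 to 1580 after 3 h, with set B highest in each N2 group. The median sperm gene differed by -2.12 in daf-2 against N2 at 12 h, and 2 of the 32 were called lower and none higher. Over all genes, 14.4% were called higher and 7.59% lower in that comparison. The sum of 14 oocyte and embryo genes was 433 to 495 in daf-2 worms, against 578 to 665 in N2 worms at 12 h. Of these 14, 1 was called higher and 2 lower. For 9 measured intestinal genes the sum was 430 to 523, against 444 to 580, with 3 of the 9 called higher and 2 lower. The sum of 6 measured hypodermis genes was 52.2 to 78.4 in daf-2 worms, against 91.6 to 92.3 in N2 worms at 12 h. Of these 6, 1 was called higher and 0 lower, and their median difference was -0.07, against -0.14 over all genes. The listed hypodermis gene dpy-7, called higher in daf-2 worms, was left out of that sum because a daf-2 array lacked its value. The sum of 7 muscle genes was 94.2 to 103, against 87.3 to 101. The part of sperm, oocytes, embryos and hypodermis in the differences of icl-1, tps-1, tps-2 and tre-4 was not tested. In sets A, B and 1 the sperm sum was 510, 1140 and 148 in N2 worms at 12 h. In daf-2 worms it was 190, 33.8 and 181, so in set 1 it was higher in daf-2 than in N2. Within those sets, in that order, the daf-2 difference was 2.30, 2.30 and 1.68 for icl-1 and 1.60, 1.47 and 1.11 for tps-1. For tps-2 it was 1.42, 1.66 and 1.01. Scaling moved the median of all genes in the daf-2 comparison, which was -0.14 here and -0.38 with median scaling. Relative to that median of all genes, icl-1 was higher in daf-2 by 2.24, tps-1 by 1.53 and tps-2 by 1.5.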

How the data were processed

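Per the labels' protocols, total RNA was column-purified and amplified to Cy3-labelled cRNA. The deposited spot intensity values are, per the file headers, background-subtracted signals of Agilent Feature Extraction 10.10.1.1 on a linear scale, unscaled between arrays. The authors' series table, also deposited as linear intensity, gives each array's listed signals multiplied by a constant (log2 between -0.1124 and 0.1317). It lists 24939 of the 43803 non-control spots for each array of sets A and B, and 35344 for set 1. Over the listed spots the array medians lay between 376.0 and 1311.6. The table thus leaves out spots, and more of them in sets A and B. It served as an alternative, and how its constants were set is unknown. The array of 45220 spots carried 43603 probes, of which 34320 had 1 gene name in RefSeq's WBcel235 table (30978 matched by sequence name, 3342 by accession) and 9283 had none.

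Signals were log2-transformed and each array's 75th percentile subtracted. Uneven spots (28 to 146 an array) were set missing and spots of a probe averaged. A probe was kept if some group had it well above background on each of its 3 arrays, and the brightest kept probe stood for its gene (13486 genes, 3864 with several). limma 3.58.1 (R 4.3.3) fitted 4 group means over all 12 arrays, with two-sided tests and Benjamini-Hochberg adjustment over genes (0.05), and was tested on simulated data. The number of arrays limits the precision.

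The 10 genes, tre-4 and the gene lists were chosen with earlier results of these data known. From each list up to 4 called genes with the largest difference were named, and always daf-2, daf-16, sod-3 and mtl-1; for each called gene of the 10, the 3 nearest genes by pattern. Same-set arrays deviated together in the N2 comparisons (correlation 0.45 to 0.894) but not in the daf-2 comparison (0.389, -0.399 and 0.129 in sets A, B and 1). The set is also the slide, so the set was tried as a block. Sets A and B were scanned on the same day and set 1 on another, so the fit of 1 scan day and the fit without set 1 use the same arrays. Other alternatives were scaling, background correction, filters, choice of probe, the series table and leaving out arrays or sets.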

Additional observations from a re-analysis of the deposited data

How the results depend on the processing

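In daf-2 worms against N2 at 12 h, the count of 3 changed genes of the 10 became 4 with quantile normalization, with or without normexp (gpdh-2 added), 5 with the replicate block and 6 with the replicate block and quantile normalization, a setting chosen after seeing the data; leaving out arrays or sets gave 3 to 3. In N2 at 3 h against 15 °C, the count of 1 became 0 with quantile normalization, median scaling, no filter on dim probes, a fit of only the groups compared or only the sets of 1 scan day, and 2 with normexp and quantile normalization together; leaving out arrays or sets gave 0 to 1. In N2 at 12 h against 15 °C, the count of 1 became 3 with the replicate block, with or without quantile normalization. It became 0 where probes had to be well above background on all arrays, in the series table (both without tre-5), with only the groups compared and with 1 scan day, and leaving out arrays or sets gave 0 to 1. In N2 at 12 h against 3 h, the count of 0 became 1 with the block, with or without quantile normalization. Over all genes, the 2962 calls of the daf-2 comparison ranged between 779 (without set B) and 5053 (replicate block). Those of N2 ranged between 0 and 319 at 3 h against 15 °C (138 here), 0 and 1020 at 12 h against 15 °C (355), and 0 and 731 at 12 h against 3 h (282). The highest in each was the block; the lowest was the fit of only the groups compared at 3 h, and the fits without set A and without set B for the others, and the cause of these moves was not tested. The 6 called differences of the 10 genes and tre-4 were tested 160 times under alternatives and lost the call in 25, of which 17 were tps-1 at 3 h, 6 tre-5 at 12 h and 2 tre-4; none changed direction. The 19 called differences of other named genes lost the call in 151 of 511 tests and none changed direction. Single sets included, 99 of 1368 alternative values of the 10 genes and tre-4 changed sign without a call or moved by more than the spread between sets. Dim signal limits tre-5 and dpy-7, and tps-2 rests on 1 probe. tre-4 was low in signal yet well above background on all 12 arrays. Its daf-2 difference of 1.74 was 0.93 with normexp and quantile normalization.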
